A study of Mus musculus with 35 samples.

Results

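C/D box small nucleolar RNAs (snoRNAs) were followed in small RNA-seq libraries of the mouse hippocampus after pilocarpine-induced status epilepticus (SE). Of the 44884 rows of the small RNA count table, 77 carried a name beginning with Snord, the mouse prefix for this class, and the 73 that held a count in at least 8 of the 16 libraries were taken as members. Snord80, with counts in 7 libraries, fell just outside, as did Snord1c with counts in 1 library and the Snord50a and Snord50b rows with none. Snord14a, with counts in 14 libraries, and Snord15a, with counts in 15, were the members nearest the limit, and the other 71 had counts in all 16. Mice of both sexes on the C57BL/6J background, 6 to 7 weeks old, received pilocarpine at a first dose of 350 mg/kg, with further injections until SE began, and hippocampi were taken 1 h, 8 h, 24 h or 120 h later. Control mice received vehicle at matching times, and all mice of both arms had scopolamine beforehand. Each of the 8 groups held 2 small RNA libraries. The labels do not say that the 2 came from separate mice, so p values measure the spread between these libraries. The 8-h small RNA libraries, SE and control alike, carry 1 batch label and all other small RNA libraries another, so time and batch cannot be told apart for 8 h. In small RNA, SE and control were always compared within a batch label. The titles of the 8-h SE libraries begin with another letter than those of the 8-h controls, which the labels do not explain. SE 120 h replicate 2 is 120 h by its time label, while its source name gives a different hour.

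C/D box snoRNAs are short nuclear RNAs that carry a C box near the 5′ end and a D box near the 3′ end, and a terminal stem brings these boxes together for binding by 15.5K (Nhp2l1), NOP56, NOP58 and the methyltransferase fibrillarin. Most guide 2′-O-methylation of ribosomal RNA, while a few, such as U14 (Snord14), U8 (Snord118) and U13 (Snord13), are best known from yeast, frog or human work for the cleavage or acetylation of ribosomal RNA. In mammals nearly all are cut out of introns, many of them in genes for ribosomal proteins and translation factors, so that a host gene and its snoRNAs come from 1 transcript. Small RNA-seq reads are shorter than most of these RNAs, and a count does not tell an intact snoRNA from a fragment of one.

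The members whose levels stood out are shown first, in NCBIM37 coordinates and sequence, with the letters TGATGA (a common form of the C box) and CTGA (the D box) in capitals where they lie within the first or last 20 bases. Snord14c and Snord14d, both U14 copies in Hspa8, were far lower in the 8-h libraries. Snord98 (in Ccar1) was also far lower there, as was Snord34, while Snord32a of the same host, Rpl13a, and Snord96a of Gnb2l1 were higher. Snord49a was the most abundant member. Snord61 (in Rbmx) and Snord83b (in Rpl3) were high in 1 SE library at 8 h.
Snord14c, chr9:40611666-40611751, plus strand: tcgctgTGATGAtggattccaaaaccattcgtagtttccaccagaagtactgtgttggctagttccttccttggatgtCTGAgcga
Snord14d, chr9:40612078-40612163, plus strand: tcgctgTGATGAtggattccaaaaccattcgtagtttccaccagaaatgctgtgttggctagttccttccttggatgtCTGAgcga
Snord98, chr10:62228324-62228388, minus strand: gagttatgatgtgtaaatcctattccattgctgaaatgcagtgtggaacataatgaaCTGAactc
Snord34, chr7:52381971-52382040, minus strand: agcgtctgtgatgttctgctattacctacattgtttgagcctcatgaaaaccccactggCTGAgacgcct
Snord32a, chr7:52382752-52382834, minus strand: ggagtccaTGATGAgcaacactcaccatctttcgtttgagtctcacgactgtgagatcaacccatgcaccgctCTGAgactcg
Snord96a, chr11:48615534-48615614, plus strand: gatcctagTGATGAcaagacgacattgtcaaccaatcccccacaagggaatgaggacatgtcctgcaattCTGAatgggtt
Snord49a, chr11:62416952-62417023, plus strand: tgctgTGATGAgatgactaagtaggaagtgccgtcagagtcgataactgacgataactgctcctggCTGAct
Snord61, chrX:54644626-54644698, minus strand: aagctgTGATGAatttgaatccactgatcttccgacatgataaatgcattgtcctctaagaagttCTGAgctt
Snord83b, chr15:79908928-79909021, minus strand: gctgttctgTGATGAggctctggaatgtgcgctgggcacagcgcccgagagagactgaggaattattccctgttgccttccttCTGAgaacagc

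Sequence could be read for 61 of the 73 members, 64 to 238 bases long with a median of 81. The D box letters stood in the last 20 bases of 60 members (98.4%) and the C box letters in the first 20 bases of 37 (60.7%), each searched on the member's own strand and without mismatch. Windows of the same lengths placed 1000 bases downstream held the D box letters in 9 cases (14.8%) and the C box letters in 1 (1.64%). Both boxes were found in 36 members (59%) and in none of the windows. Absence of the C box letters, as in Snord34 and Snord98, says only that this exact hexamer is not in the window. Snord14c and Snord14d were 2 edits apart (97.7% identity) and Snord88c and Snord88a 5 edits apart (94.4%), so reads could be assigned to either copy of such a pair and their separate values are uncertain. The build behind the small RNA counts is not given in the sources used here, and 4 member rows joined several names, among them a row led by Snord11 that joined 31.

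A host gene was found for 66 members, spread over 47 host genes, and 14 hosts held more than 1 member, 33 members in all. By NCBIM37, 34 members lay in an intron and 23 overlapped an exon of some transcript of the host. The remaining 4 of the 61, Snord13, Snord118, Snord104 and Snord64, had no annotated host. Where members outside the 61 had a host, it was a RefSeq gene that spans the member, with strand not given. Snord73a, Snord58b and Snord87 were among these, and Snord87 fell within both Mcmdc2 and Snhg6. Rpl13a held Snord32a, Snord33, Snord34 and Snord35a, members of a group linked in cultured cells to lipid-induced oxidative stress.

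Members took a small part of each library. Total counts ran from 3171341 to 7683708 per library, and members took 1.14% to 1.57% of them in 15 libraries (median 1.27%). SE 1 h replicate 2 was the exception at 2.98%, with a 95% Wilson interval of 2.97% to 3.00% that covers counting error only. Its share was 2.32 times the median of the 16 libraries. MicroRNAs took less of that library, and as a share of the counts outside microRNAs its members were at 1.22 times the median (23.9%, in a range of 14.98% to 25.73%). The 3 most abundant members held 28.7% of member counts, and without them the first ratio was 2.198.

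**Figure D1:**
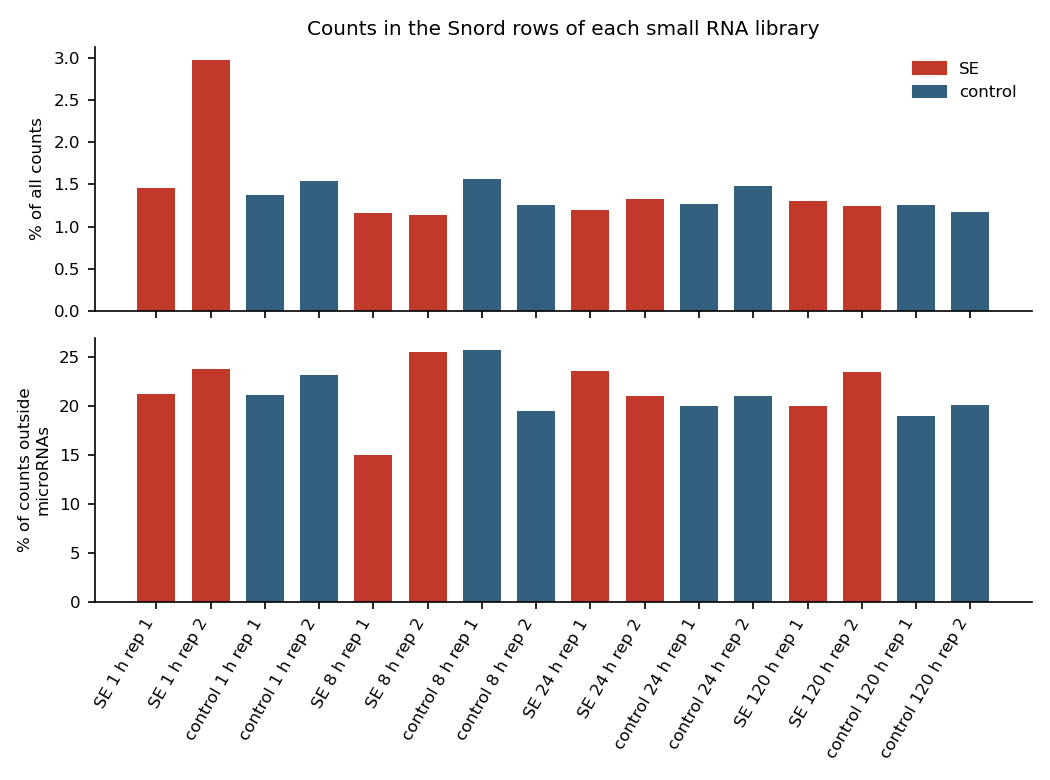
Counts in the Snord rows of each small RNA library (bars, SE red, control blue) as percent of all counts (upper panel) and of the counts outside microRNAs (lower panel). SE 1 h replicate 2 reached 2.98% in the upper panel against 1.14% to 1.57% elsewhere, and 23.9% in the lower panel, inside the range of the other libraries.

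The most abundant members, by mean CPM (counts scaled to a common library size by TMM), were Snord49a, Snord100, Snord96a, Snord57, Snord65, Snord99, Snord64, Snord95, Snord32a and Snord38a. Snord49a averaged 2061 CPM, Snord100, from Rps12, 1085 CPM and Snord96a 1033 CPM, and Snord38a, last of these, averaged 463 CPM. At the other end Snord14a averaged 0.515 CPM and Snord15a 0.768 CPM, and these were the 2 members that the filter on low counts removed before testing. Values were also divided by annotated length, which takes reads to come from the whole RNA, though a count can be a fragment. By that measure Snord49a remained first at 28629 CPM per kilobase, followed by Snord100 at 14659 and Snord96a at 12753. U8 (Snord118), which is needed for large-subunit ribosomal RNA in frog oocytes, stood at 684 CPM per kilobase, and U13 (Snord13), which pairs with small-subunit ribosomal RNA, at 151. Of the brain-rich snoRNAs of the imprinted Snurf-Snrpn locus, Snord64 averaged 548 CPM and Snord107 73.4 CPM, and no member came from the list of the imprinted Dlk1-Dio3 cluster.

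Members moved together mostly in 1 library. On the log2 CPM scale, each of the 71 members that passed the filter was set against its own median over the 16 libraries. In SE 1 h replicate 2, 68 of 71 members lay above their median (95.8%), by a median of 0.97, and 45 members had their highest value of all 16 libraries there. The share above the median was 54.9% in SE 1 h replicate 1, 50.7% and 59.2% in the 1-h controls, and 19.7% to 73.2% in the other libraries outside SE 1 h replicate 2. Against the other 11 libraries of its batch, SE 1 h replicate 2 had a median ratio of 2.08, 58 members were above all 11, and Snord93 and Snord85_Snord8, both under 2 CPM there, were the 2 below a ratio of 1. Snord55 had the highest ratio, 4.30.

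Other RNA classes in that library moved unequally. Its Gm-named rows (169 features) lay 0.79 above their own medians at the median, its H/ACA box snoRNAs (23 features), which guide pseudouridylation, 0.61 above, its piRNA-annotated rows (140 features) 0.11 above, and its microRNAs (681 features) 0.04 below. MicroRNA scaling in place of scaling on all features left 68 of 71 members above their median. The part of library preparation in this rise was not tested.

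Between the 2 libraries of a group, the members' median log2 difference, replicate 2 minus replicate 1, was 1.03 for SE 1 h, with 68 of 71 members higher in replicate 2, and -0.10 to 0.17 for the other 7 groups. The 24-h groups came next, with 52 of 71 members higher in replicate 2 for SE (median 0.17) and 59 of 71 for control (0.16). Over the 12 libraries outside 8 h the first principal component held 58.7% of the members' variance and SE 1 h replicate 2 scored 8.16 on it, the others between -2.54 and 0.42. For the other features it held 24.8%. Without SE 1 h replicate 2 it held 23.7% for members and 28.3% for the other features. The median pairwise correlation of members over the 12 libraries was 0.57, against 0.18 without SE 1 h replicate 2 and 0.0019 for the other 1032 features with it. These 12 libraries share a batch label but differ in depth, and the correlations carry no test.

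**Figure D2:**
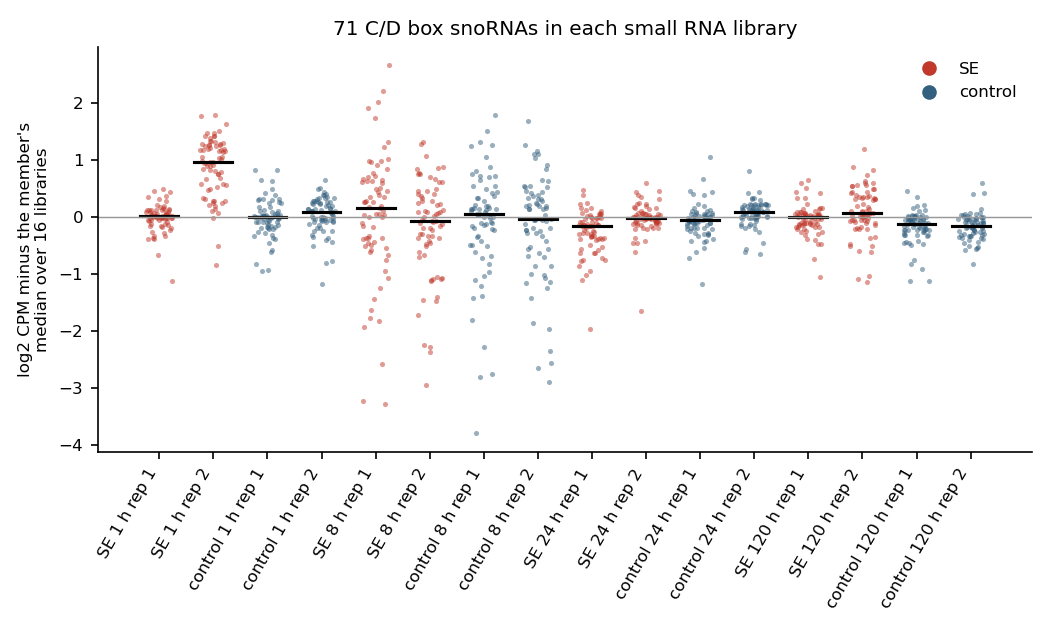
Each point is 1 of 71 members in 1 library, as log2 CPM minus that member's median over the 16 libraries, and black bars mark library medians (SE red, control blue). The median of SE 1 h replicate 2 lies at 0.97, and the 8-h libraries spread most widely, with members both far below and far above 0.

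The 5 features outside the Snord rows whose within-group deviations over the 16 libraries went most closely with the members' mean deviation were Gm22744 (Pearson r = 0.96), Gm25091 (0.95), Gm25449 (0.93), Gm26457 (0.92) and Gm25744 (0.91). Gm25449 and Gm26457 are annotated as snoRNAs by RefSeq (GRCm38.p6), and the other 3 had no entry.

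SE was then compared with control at each time. No member passed an adjusted p of 0.05 in edgeR's quasi-likelihood test at any of the 4 times, over them together or in the test of whether the SE effect differed between times, and 0% of the 1103 features tested passed in each of the 6 comparisons. In the same test, unadjusted p was under 0.05 for 9 of 71 members at 1 h and 3 at 8 h. There was 1 at 24 h, 1 at 120 h, 2 over the 4 times and 1 in the test between times. The matching shares of all 1103 features were 3.81%, 14.1%, 1.27%, 2.63%, 3.99% and 3.81%, in that order. DESeq2 called Snord61 at 8 h and no member in the other comparisons, and edgeR's likelihood ratio test called none.

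At 1 h, 66 of 71 members had a positive log2 fold change, SE over control, with a median of 0.54, where the median of all 1103 features was 0.07. Both SE libraries lay above both controls for 17 members (23.9%), against 17.7% of all features. Snord38a, which had the smallest p, had 578 and 1175 CPM in SE libraries, against 376 and 501 CPM in controls. Both SE values were higher, but the second SE library alone was far from the rest, and the log2 fold change was 1.00 ± 0.29 (SE of the estimate; unadjusted p = 0.0057, adjusted p = 0.97, edgeR). Snord87, from the noncoding Snhg6 locus, had 325 and 793 CPM in SE libraries, against 241 and 322 CPM in controls (log2 fold change 0.99 ± 0.34, adjusted p = 0.97, edgeR). Its first SE library exceeded the higher control by a few CPM only. Snord95 of Gnb2l1 had 510.9 and 1045 CPM in SE libraries, against 314 and 457 CPM in controls, and Snord52 had 313 and 704 CPM, against 274 and 291 CPM in controls. In both the groups did not overlap, with SE replicate 2 the highest.

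Without SE 1 h replicate 2 the members' median at 1 h was -0.08 and 25 of 71 were positive, Snord38a fell to a log2 fold change of 0.35 and Snord87 to 0.16, and no member was called. Leaving out SE 1 h replicate 1 instead, with SE 1 h replicate 2 as the only SE library of that time, gave 1.40 for Snord38a and 1.48 for Snord87. The summed level of 9 microRNAs typical of choroid plexus also differed at 1 h, 11930 and 9967 CPM in SE libraries, against 2765 and 7578 CPM in controls. The part of this level in the members' values was not tested.

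**Figure D3:**
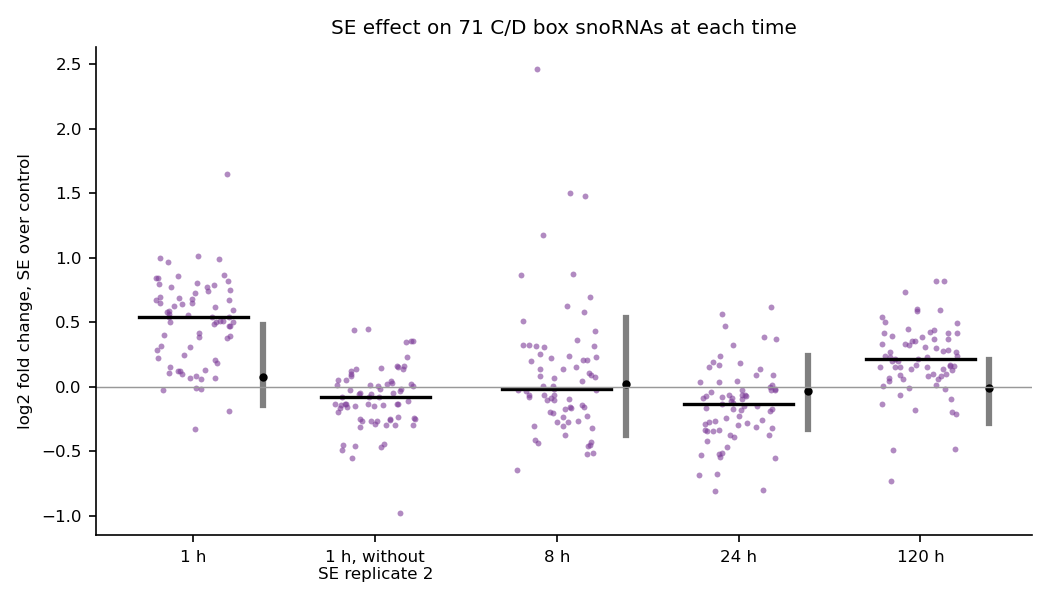
Log2 fold change, SE over control, of each of 71 members at each time, with black bars at the members' median, and at 1 h also without SE replicate 2. The grey bar and black dot beside each time give the interquartile range and median of all 1103 features. The median at 1 h is 0.54 with all libraries and -0.08 without SE replicate 2.

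At 8 h the members split evenly, 35 with a positive and 36 with a negative log2 fold change, around a median of -0.02 (0.03 for all features). Groups did not overlap for 11 members higher in SE (15.5%, against 21.7% of all features) and 16 lower (22.5%, against 16.4%). The largest values came from SE 8 h replicate 1. Snord61 had 208 and 21.1 CPM in SE libraries, against 19.4 and 22.2 CPM in controls. One SE library was far above the other, which lay among the controls, so the groups overlapped and the log2 fold change of 2.46 ± 0.72 (adjusted p = 0.25, edgeR) rests on that library, being 0.08 without it. Snord83b had 143 and 33.7 CPM in SE libraries, against 32.7 and 29.8 CPM in controls. The second SE library was barely above the controls, and the log2 fold change of 1.501 ± 0.499 (adjusted p = 0.27, edgeR) was 0.16 without SE 8 h replicate 1. Snord17, the longest member at 238 bases, had 45.2 and 11.0 CPM in SE libraries, against 13.4 and 11.4 CPM in controls, and its log2 fold change turned to -0.13 without that library. Snord61 and Snord17 overlapped between groups and are named here after their values were seen.

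SE 8 h replicate 1 differed in other ways as well. Short ribosomal RNA rows took 0.61% of its counts, against 0.048% to 0.19% in the other 15 libraries, and its H/ACA box snoRNAs lay 1.89 above their medians on the log2 scale. In it, 10 members had their highest and 14 their lowest value of all libraries, so members did not move in 1 direction there. Summed microRNAs of vessels stood at 30150 and 19090 CPM in 8-h SE libraries, against 15510 and 15260 CPM in controls, and those of myeloid cells at 199 and 126 CPM, against 84.8 and 85.7 CPM in controls. What part these have in the 8-h values was not tested. Without SE 8 h replicate 2, which leaves replicate 1 as the only SE library of that time, log2 fold changes were 3.34 for Snord61, 2.21 for Snord83b and 1.87 for Snord17.

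Members that were lower in SE at 8 h without overlap included the abundant Snord49a, with 1803 and 2263 CPM in SE libraries, against 2975 and 2579 CPM in controls (log2 fold change -0.45 ± 0.36, adjusted p = 0.61, edgeR). Snord65, from the same host gene, had 238 and 291 CPM in SE libraries, against 415 and 342 CPM in controls (-0.52 ± 0.29, adjusted p = 0.46, edgeR). Snord21 of Rpl5 and Snord35b had log2 fold changes of -0.41 and -0.64. On the other side were the row led by Snord11 (0.87), Snord45c (0.63) and Snord42a (0.86), which ranged up to an adjusted p of 0.42.

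At 24 h, 53 of 71 members had a negative log2 fold change, with a median of -0.13 (-0.03 for all features). SE lay below control without overlap for 22 members (31%, against 25% of all features) and above it for 8 (11.3%, against 15.9%). Snord68, in Rpl13, had 214 and 280 CPM in SE libraries, against 359 and 362 CPM in controls. Both SE values were lower, by a log2 fold change of -0.55 ± 0.23 (unadjusted p = 0.035, adjusted p = 1, edgeR). Snord64 had 243 and 389 CPM in SE libraries, against 457 and 555 CPM in controls (-0.68 ± 0.41, adjusted p = 1, edgeR). The joined row Snord78_Snord7 (-0.81) and Snord1b (-0.52) were the other members lower without overlap and of smallest p, and Snord16a (0.47), Snord35b (0.62), Snord13 (0.37) and Snord21 (0.19) stood on the higher side. Summed choroid plexus microRNAs stood at 9818 and 11850 CPM in SE libraries, against 18250 and 2532 CPM in controls, and their part was not tested.

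At 120 h, 60 of 71 members had a positive log2 fold change, with a median of 0.21 (-0.0054 for all features). SE lay above control without overlap for 27 members (38%, against 12.1% of all features) and below it for 6 (8.45%, against 12.6%). The changes were small. Snord1b had 4.76 and 4.34 CPM in SE libraries, against 2.02 and 3.08 CPM in controls, a log2 fold change of 0.82 ± 0.36 (unadjusted p = 0.043, adjusted p = 1, edgeR). Snord99, in the noncoding Snhg12, had 582 and 903 CPM in SE libraries, against 563 and 570 CPM in controls (0.39 ± 0.27, adjusted p = 1, edgeR). Snord42a (0.82) and Snord14c (0.59) were also higher, and Snord88a (-0.49), Snord23 (-0.73), Snord53 (-0.48) and Snord35b (-0.18) lower. Leaving out any 1 library kept the members' median between 0.14 and 0.27. Summed microRNAs of blood cells reached 1527 CPM in SE 120 h replicate 2, against 464 to 556 CPM in the other libraries of that time. Those of neurons reached 421500 CPM in it, against 299600 to 317100 CPM in the others. The part of either was not tested.

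Over the 4 times, the members' median was 0.18 (0.03 for all features) and 63 of 71 were positive. Snord66, in Eif4g1 (0.31 ± 0.12, unadjusted p = 0.027), and Snord16a, in Rpl4 (0.34 ± 0.14, unadjusted p = 0.030), were positive at 4 of 4 times and had an adjusted p of 0.94 in edgeR. Without SE 1 h replicate 2 the median over the 4 times was 0.02. In the test between times, Snord38a had the smallest p (unadjusted 0.043, adjusted 0.87, edgeR), with log2 fold changes of 1.00, -0.31, -0.07 and 0.16 from the earliest to the latest time.

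**Figure D4:**
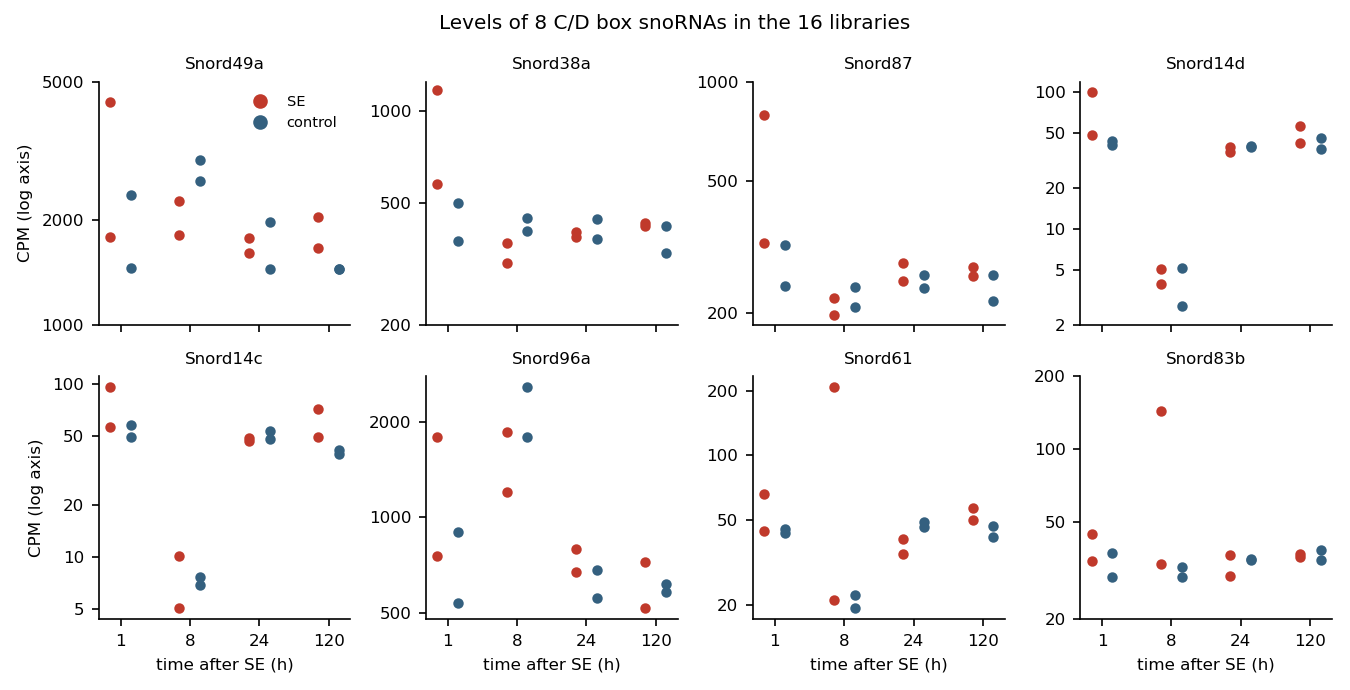
CPM (log axis) of 8 members in the 16 libraries by time after SE, SE red on the left and control blue on the right of each time. Snord38a and Snord87 are high in 1 SE library at 1 h, Snord61 and Snord83b in 1 SE library at 8 h, and Snord14c and Snord14d are at 2.73 to 10.1 CPM in all 8-h libraries.

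Groups of members by function and host gave no call in any SE comparison. The 7 members tested from a list for ribosomal RNA processing were Snord118, Snord14c, Snord14d, Snord14e, Snord22, Snord17 and Snord13. All were positive at 1 h and 120 h, with medians of 0.21 and 0.42, and 6 and 4 were positive at 8 h and 24 h (0.20 and 0.04). The 4 members of Rpl13a had medians of 0.68, -0.13, -0.30 and 0.16, from the earliest to the latest time. The imprinted pair Snord64 and Snord107, which also make up the brain list, had medians of 0.58, 0.08, -0.40 and 0.05 in the same order. For the 2 rows of Gas5, a growth-arrest noncoding RNA, these were 0.62, 0.12, -0.32 and 0.17, and Snord22, the only member of Snhg1, had 0.21, 0.32, -0.06 and 0.43. All these medians at 1 h include SE 1 h replicate 2.

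Members passed the threshold between the 8-h controls and the controls of the other times. Of 71 members, 24 passed the adjusted p of 0.05 in edgeR's quasi-likelihood test, 11 higher and 13 lower in the 8-h controls, where 38.6% of all 1103 features passed. Calls were thus no more frequent among members than among all features. With scaling on microRNAs alone, which moved the median of all features by 0.17, the split was 15 higher and 11 lower, and without control 8 h replicate 2 only 10 members were called. Summed microRNAs of neurons stood at 358700 and 406700 CPM in 8-h controls, against 270600 to 317100 CPM in the other controls, and those of oligodendrocytes at 2748 and 3036 CPM, against 1608 to 2336 CPM. The liver microRNA mir-122 stood at 6.27 and 72.9 CPM in 8-h controls, the higher value in replicate 2, against 5.15 to 6.51 CPM in the others. What part these have in the 8-h values of the controls was not tested.

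Snord14d, a U14 copy, had the largest difference. It had 2.73 and 5.204 CPM in 8-h controls, against 38.5 to 46.5 CPM in the 6 other controls. Snord14c, the nearly identical copy, had 6.81 and 7.63 CPM in 8-h controls, against 39.3 to 58.1 CPM in the others. Neither overlapped, and the log2 fold changes were -3.40 ± 0.40 (adjusted p = 0.00016) and -2.73 ± 0.36 (adjusted p = 0.00035, both edgeR). Snord14e, a further copy in Hspa8 with 78.9% identity to either, had a log2 fold change of -0.89 and was not called (adjusted p = 0.17, edgeR). Snord98 had 41.4 and 47.2 CPM in 8-h controls, against 263 to 334 CPM in the others (-2.75 ± 0.30, adjusted p = 0.00012, edgeR). Snord73a of Rps3a1 (-2.40), Snord58b of Rpl17 (-2.16), Snord34 (-1.49), the row led by Snord11 (-1.35), Snord100 (-1.25), Snord70 of Nop58 (-1.15), Snord12_Snord123 (-1.13), Snord65 (-1.10), Snord110 of Nop56 (-0.79) and Snord45b of Rabggtb (-0.77) were the other lower members.

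Among the higher members Snord96a had 2566 and 1784 CPM in 8-h controls, against 539 to 902 CPM in the others (1.76 ± 0.30, adjusted p = 0.0013, edgeR). Snord23 (1.85), Snord32a (1.52), Snord72 of Rpl37 (1.29), Snord1b (1.17), Snord88c (1.13), Snord82 of Ncl, the gene of nucleolin (1.06), Snord95 (1.01), Snord88a (1.01), Snord66 (0.76) and Snord71 of Ap1g1 (0.75) completed the group.

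Members of Rpl13a went in both directions in this comparison. In this host, Snord34 had 37.9 and 38.2 CPM in 8-h controls, against 90.4 to 120 CPM in the others, whereas Snord32a had 1050 and 789 CPM, against 269 to 442 CPM in the others. The groups of each stood apart, in opposite directions, and Snord35a was at 0.50 and Snord33 at -0.44, neither called. Of the 5 hosts with at least 2 called members, Rpl13a alone held calls in both directions, while Hspa8, Nop58, Gnb2l1 and the host of Snord88a and Snord88c held calls in 1 direction each. The called higher members had a median GC content of 51.8% (11 members), the called lower members 42.9% (11 with sequence) and the members not called 44.4% (37 with sequence), given as a description.

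**Figure D5:**
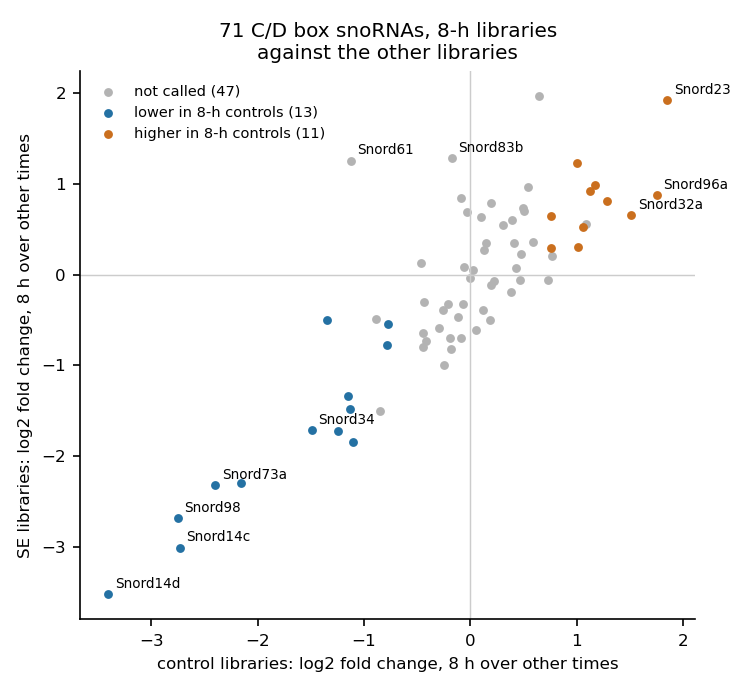
Log2 fold change of 71 members between 8-h libraries and the libraries of the other times, in control libraries (horizontal) and in SE libraries (vertical), colored by the call in controls. Points run along the diagonal from Snord14d (-3.40 and -3.52) to Snord23 (1.85 and 1.92), with Snord61 and Snord83b above it.

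SE libraries, whose values the controls' contrast did not compare, were set against each other in the same way. They shared its model, scaling, filter and estimate of spread, and the same batch labels, so the comparisons are not independent. All 24 members called in controls had the same sign among SE libraries. Of these, 18 passed the adjusted p there, 7 of the 11 higher and 11 of the 13 lower (edgeR). Among the 47 members not called in controls, 33 also had the same sign and 8 passed. The share of all features that passed among SE libraries is not given here. Snord14d had 3.96 and 5.06 CPM in 8-h SE libraries, against 36.3 to 99.9 CPM in the 6 other SE libraries. With all 4 libraries of 8 h against the other 12, 33 of 71 members were called, again without a share of all features. In controls alone that share was 38.6%. Time and batch cannot be told apart here.

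Host genes and snoRNP proteins were read from 19 mRNA-seq libraries, taken at 36 h in place of 24 h and otherwise at the same times, with 2 or 3 per group and total counts of 8503816 to 28465548, where 36 h and 120 h shared 3 controls. Of 49 listed genes, 42 were tested, 26 of the 33 hosts among them. Snhg1 was not among them. The listed hosts were not the same set as the hosts of the members. Some, Meg3 and Rpl21 among them, held no member by the annotation used, and some hosts of members were not listed. No listed gene was called by edgeR's quasi-likelihood test at any of the 4 times. The share of all genes called was 0.0799%, 0%, 0.0252% and 0.0563% from the earliest to the latest time. At an unadjusted p under 0.05 there were 1, 6, 2 and 6 listed genes in that order. The share of all genes at that threshold is not given here, so these counts cannot be read as an excess. DESeq2 called Meg3 and Rpl21 at 8 h, Hspa8 at 120 h and none at the other times, all 3 lower in SE. Meg3, a noncoding RNA of the imprinted Dlk1-Dio3 cluster that is named here after its values were seen, had 1.56, 0.707 and 1.20 CPM in SE at 120 h, against 7.95, 6.41 and 2.39 CPM in control. The groups did not overlap, and the log2 fold change was -2.29 ± 0.47 (adjusted p = 0.22, edgeR). At 8 h Meg3 had 0.550 and 1.67 CPM in SE, against 17.3, 2.30 and 4.13 CPM in control (-2.69 ± 0.87, adjusted p = 0.49, edgeR).

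Fibrillarin (Fbl), the methyltransferase, averaged 9.78 ± 2.66 CPM in SE and 9.55 ± 2.74 CPM in control at 1 h (SD, n = 3 and 2), with log2 fold changes of 0.03, -0.21, 0.05 and -0.12 from the earliest to the latest time. Nop56 had -0.11, 0.17, -0.01 and 0.08, Nop58 -0.11, -0.12, -0.27 and -0.0017, and Nhp2l1 -0.41, -0.17, -0.07 and 0.03. Nop58 at 36 h had 46.9, 45.0 and 45.8 CPM in SE, against 51.0, 61.3 and 53.9 CPM in control. Its groups did not overlap, but the adjusted p was 0.47 (edgeR). Gas5 averaged 121 ± 8.38 CPM in SE and 109 ± 2.38 CPM in control at 120 h (SD, 3 libraries each). The log2 fold change was 0.16 ± 0.06 (adjusted p = 0.46, edgeR). At 1 h the listed hosts, not all of which held members, had a median log2 fold change of -0.08 (-0.0023 for all genes). The members had 0.54, or -0.08 without SE 1 h replicate 2. The libraries of the mRNA and small RNA tables carry no label that links them to the same mice.

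At 8 h the mRNA call depended on batch. One of the 3 controls carried another batch label than the rest, and with batch as a covariate 6 listed genes were lower in SE, 14.3% of 42, where 13.5% of all genes were called. Among them were Rpl21 (-1.90), Rps12 (-0.73), Gas5 (-0.49), Rpl4 (-0.41) and Hspa8 (-0.39), and the same 6 were called with that control left out. The 1-h mRNA groups, SE and control alike, also mixed batch labels, and the 1-h mRNA values given above are not adjusted for batch.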

How the data were processed

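Small RNA was read from 16 hippocampal libraries and mRNA from 19. Both tables hold raw counts that the authors deposited without normalization. The small RNA reads were counted with the Oasis suite after adapter and end trimming, the mRNA reads aligned to NCBIM37 with HISAT2 2.1.0 and counted with HTSeq. Members were the Snord rows with a count in at least 8 of 16 columns. Features were filtered with filterByExpr, which left 1103 (71 members), scaled by TMM and tested with edgeR 4.0.16 (R 4.3.3) by quasi-likelihood in 1 model of 8 groups, with Benjamini-Hochberg adjustment over all features and a threshold of 0.05. mRNA was tested by time. Log2 CPM carried a prior count of 1. DESeq2 1.42.0, other scalings, filters, blocks and left-out libraries were alternatives.

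Named members were those called, the 10 most abundant, up to 4 per direction and time of smallest p without overlap, and listed families. Members and lists were chosen with earlier results of these data known. The code was tested on simulated data. Positions and hosts came from NCBIM37 with GENCODE M1, and from RefSeq names (GRCm38.p6) for members without them. Some host genes and 1 host gene's result are not reported here.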

Additional observations from a re-analysis of the deposited data

How the results depend on the processing

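SE calls among members changed from 0 only as follows. At 1 h they numbered 9 at an unadjusted p under 0.05, and 0 to 2 when 1 library was left out. At 8 h they numbered 2 without a filter, 1 with DESeq2, 3 at an unadjusted p, and 0 to 3 with 1 library left out. An unadjusted p gave 1 at 24 h, 1 at 120 h and 2 over the 4 times. The test between times gave 1 without a filter, 1 at an unadjusted p and 0 to 1 with 1 library left out. Among 8-h controls the 24 calls became 10 to 27 with 1 library left out, and 28 without both SE libraries that stood apart, a choice made after seeing the data. Host and snoRNP calls were 1 at 1 h without a filter. At 8 h they were 2 without a filter, 1 by likelihood ratio, 2 with DESeq2, 2 with the replicate block, 6 with batch as a covariate and 0 to 6 with 1 library left out. At 120 h they were 1 without a filter, 1 by likelihood ratio and 1 with DESeq2. The share ratio of SE 1 h replicate 2 was 1.219 outside microRNAs and 2.198 without the 3 most abundant members, and members of at least 50 counts were 100% above their medians there.

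Snord17 at 8 h ran from -0.1274 without SE 8 h replicate 1 to 1.872 without replicate 2, and was also negative without both libraries that stood apart. Snord69 at 1 h ran from -0.03343 without SE 1 h replicate 2 to 1.112 without replicate 1. The replicate numbers were not taken as a pairing. Same-numbered deviations correlated at -0.201 to 0.179 over the times, which with 2 libraries a group cannot exclude one. The replicate block gave 0 member calls in each SE comparison, as did the crossed block at 8 h, which was added after seeing the data. Causes were not tested. The 2 libraries a group limit the precision, and where 1 is left out the lone library is assumed to vary like the other groups.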

Other observations

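Beside the 5 features named in the report, the next 10 outside the Snord rows that went with the members' mean deviation over the 16 libraries were all Gm-named rows, with Pearson r from 0.855 (Gm23090) to 0.893 (Gm23246). The libraries differ in depth and come from 2 batches, and these values carry no test.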
